A study of Homo sapiens with 9 samples.

Results

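The cadherin and protocadherin genes described here are the autosomal protein-coding genes of GRCh38 whose symbols are CDH followed by digits only or begin with PCDH. There were 86 of them among 19122 autosomal protein-coding genes, and they were chosen by symbol alone. Of these, 33 stand by themselves and 53 lie in the protocadherin clusters of chromosome 5, so that with the clusters taken as 1 locus there were 34 loci. Each locus is the gene extended by 5 kb at either end, and a listed region belonged to it when they shared at least 1 bp. Chromosomes X and Y hold 3 further protocadherin genes, which the rule leaves out.

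Accessible DNA was mapped by ATAC-seq, a method that reads where Tn5 inserts adapters into open chromatin, in SK-N-MC, an established Ewing sarcoma cell line whose genotype is labelled wild type. The groups were cells with shCHD4#1 (hairpin 1), cells with shCHD4#2 (hairpin 2) and cells with the control hairpin shScramble, all 3 kept for 48 h in 100 ng/ml doxycycline to switch the hairpin on. Both tested hairpins target CHD4, the ATPase of the NuRD nucleosome remodelling and deacetylase complex, and the question was how its loss alters accessibility. Each group had 3 biological replicates, 9 samples in all, and each sample mixed 100000 SK-N-MC cells with 100 Drosophila S2 cells. Whether the hairpin lines are clones is not given in the sources used here, and the extent of CHD4 silencing cannot be read from lists of regions.

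The values come from 3 deposited lists of accessible regions, 1 per group, filed under replicate 1 of each group and taken here as the combined list of the group, which is an inference. On the autosomes they held 119696 regions with hairpin 1, 81189 with hairpin 2 and 83564 with shScramble. Read depth is unknown. With 1 list per group there is no spread between replicates, and no difference between groups was tested. Regions of the whole list were thus 1.43 times as many with hairpin 1 and 0.972 times as many with hairpin 2 as with shScramble, and numbers at a locus are read against these ratios. Of the 8 Ewing sarcoma marker genes chosen to check the label, 6 are autosomal and matched, and each of them had at least 3 regions in every list. Over all autosomal genes the median was 3 regions with hairpin 1, 2 with hairpin 2 and 3 with shScramble, so these numbers do not test the label. Accessible regions do not measure RNA, so the marker numbers are no check of expression.

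Classical cadherins are single-pass membrane proteins that bind calcium and hold neighbouring cells together, with catenins linking their tails to actin. Type I members, such as the E-cadherin of epithelia and the N-cadherin of neural and mesenchymal cells, bind strongly to their own kind, while type II members are used for finer sorting of cells, above all in the nervous system. Clustered protocadherins give single neurons a surface identity: each variable exon has its own promoter, most of which carry a conserved sequence element, and a distal enhancer bound by CTCF and cohesin chooses among them. Ewing sarcoma is driven by the EWSR1::FLI1 fusion and has both neural and mesenchymal features.

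Nearly all listed promoters of the PCDHB genes share a short word, and the 60 bases around it in PCDHB8 and PCDHB13 are close copies of each other. RefSeq promoter windows (GRCh38.p14), 250 bases before to 50 after a start, were listed for 67 of the 86 members. Among the 47 clustered genes with such a window, the 8-base word AGCGCCAC, searched on both strands, occurred in 13 (27.7%), against 1.5% of 15100 autosomal genes. All 13 were PCDHB genes, of 14 PCDHB genes listed, and no window of an unclustered member held it. The word was picked, after the sequences were seen, from those held by the most windows of clustered genes, with the first listed window of each gene, so its share is a description. The words that ranked beside it overlap it. It stood as GTGGCGCT on the strand of the gene, with its first base at -83 to -1 from the start. Stretches of 60 bases around it are printed for 7 genes, written 5′ to 3′ on the strand of the gene with the word in capitals. PCDHB2 and PCDHB5 had a region within 1 kb of the start in all 3 lists, PCDHB8, PCDHB13 and PCDHB15 had one with hairpin 2 and shScramble but not with hairpin 1, and PCDHB3 and PCDHB7 had none in any list.
PCDHB2, chr5:141094530-141094589, + strand: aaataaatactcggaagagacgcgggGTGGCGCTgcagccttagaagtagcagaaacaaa
PCDHB5, chr5:141135165-141135224, + strand: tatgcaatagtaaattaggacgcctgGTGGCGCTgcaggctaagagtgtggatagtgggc
PCDHB8, chr5:141177763-141177822, + strand: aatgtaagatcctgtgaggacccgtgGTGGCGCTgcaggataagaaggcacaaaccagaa
PCDHB13, chr5:141213851-141213910, + strand: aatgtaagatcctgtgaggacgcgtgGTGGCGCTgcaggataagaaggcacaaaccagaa
PCDHB15, chr5:141245300-141245359, + strand: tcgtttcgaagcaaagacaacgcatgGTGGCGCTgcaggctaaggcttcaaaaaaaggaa
PCDHB3, chr5:141100379-141100438, + strand: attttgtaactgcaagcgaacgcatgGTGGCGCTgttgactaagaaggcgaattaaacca
PCDHB7, chr5:141172552-141172611, + strand: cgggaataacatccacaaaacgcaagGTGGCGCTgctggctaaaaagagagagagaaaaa
The stretches of PCDHB8 and PCDHB13 differ at 1 of 60 bases, the closest of the 78 pairs of genes with the word, whose median was 27 differences. The next closest pair differs at 15. Reads from near-identical copies can be split or misplaced by mapping, and the values of PCDHB8 and PCDHB13 are uncertain to that extent.

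Among the 67 members with a listed start, 2 had a start covered with both hairpins and none covered with shScramble. Another 5 had a start covered with shScramble and none covered with either hairpin. Windows of the first 2, and of 2 of the other 5, are shown as 300 bases each, written 5′ to 3′ on the strand of the gene with each CpG dinucleotide in capitals. CDH2 and PCDHAC1 were covered in both hairpin lists but not in that of shScramble. CDH10 and PCDHGA1 were covered with shScramble and with neither hairpin.
CDH2, chr18:28177081-28177380, - strand: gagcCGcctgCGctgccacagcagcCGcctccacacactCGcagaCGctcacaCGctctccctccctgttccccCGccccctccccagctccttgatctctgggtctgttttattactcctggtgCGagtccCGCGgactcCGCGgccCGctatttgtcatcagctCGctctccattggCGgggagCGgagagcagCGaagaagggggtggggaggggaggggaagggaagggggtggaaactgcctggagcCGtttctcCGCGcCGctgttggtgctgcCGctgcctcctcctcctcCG
PCDHAC1, chr5:140926049-140926348, + strand: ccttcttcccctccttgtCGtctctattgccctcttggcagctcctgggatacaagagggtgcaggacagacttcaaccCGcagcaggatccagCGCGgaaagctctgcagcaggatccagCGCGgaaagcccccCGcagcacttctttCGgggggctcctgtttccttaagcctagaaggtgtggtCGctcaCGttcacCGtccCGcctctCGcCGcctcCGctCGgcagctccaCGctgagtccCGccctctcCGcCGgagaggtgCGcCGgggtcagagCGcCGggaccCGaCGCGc
CDH10, chr5:24644929-24645228, - strand: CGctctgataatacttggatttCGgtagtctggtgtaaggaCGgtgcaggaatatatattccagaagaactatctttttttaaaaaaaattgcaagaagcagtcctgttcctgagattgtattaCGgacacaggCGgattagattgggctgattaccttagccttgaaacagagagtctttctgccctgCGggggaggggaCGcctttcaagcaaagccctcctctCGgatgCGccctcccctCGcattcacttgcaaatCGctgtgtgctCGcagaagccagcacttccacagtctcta
PCDHGA1, chr5:141330264-141330563, + strand: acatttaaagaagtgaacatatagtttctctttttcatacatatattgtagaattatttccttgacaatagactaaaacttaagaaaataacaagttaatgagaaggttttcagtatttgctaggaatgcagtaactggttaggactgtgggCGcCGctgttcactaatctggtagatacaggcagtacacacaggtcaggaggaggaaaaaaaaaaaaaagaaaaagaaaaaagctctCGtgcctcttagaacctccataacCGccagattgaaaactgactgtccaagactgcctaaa
The window of CDH2 holds 23 CpG with 67.0% G and C, and that of PCDHAC1 holds 27 with 66.0%. Those of CDH10 and PCDHGA1 hold 12 and 4 CpG with 48.3% and 36.3%. Of the other members covered with shScramble alone, PCDHA10 has 8 CpG with 37.3% and PCDHGA9 has 7 with 37.7%. PCDHGB5 has windows with 14 and 19 CpG and 48.3% and 60%. Among all 21155 autosomal windows the medians were 21 CpG and 62.7%, among the 52 windows of clustered genes 7.5 and 40.7%, and among the 32 of unclustered members 10 and 55.2%. Windows of the clustered genes were thus poorer in CpG than those of most genes.

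Over all member loci, 370 regions were listed with hairpin 1, 239 with hairpin 2 and 236 with shScramble. The log2 ratio to shScramble was 0.65 (95% interval 0.41 to 0.88) with hairpin 1 and 0.02 (-0.24 to 0.28) with hairpin 2. The whole autosomal lists gave 0.52 with hairpin 1 and -0.04 with hairpin 2. These intervals treat regions as independent counts and cover counting error only. Both comparisons use the same shScramble list. The excess with hairpin 1 therefore lay close to that of its list as a whole, and the interval of the members reached on both sides of it. Members were also sparse in regions, with 3.34 per 100 kb with hairpin 1, 2.15 with hairpin 2 and 2.13 with shScramble, against 6.32 with hairpin 1, 4.63 with hairpin 2 and 4.66 with shScramble over the loci of all autosomal genes. Members are longer, with a median of 135 kb against 24.5 kb. At the 18 unclustered members of at least 100 kb there were 2.84 with hairpin 1, 1.62 with hairpin 2 and 1.64 with shScramble, against 4.20 with hairpin 1, 2.71 with hairpin 2 and 2.94 with shScramble at the 3210 autosomal genes of that length.

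The authors' p-value ranks the regions within each list. The median rank of member regions lay near the middle, at 51.7% of the list with hairpin 1, 51.2% with hairpin 2 and 53.5% with shScramble. An authors' p of at most 0.05 was reached by 39 regions in the member loci with hairpin 1, 27 with hairpin 2 and 19 with shScramble. That gave log2 ratios of 1.04 (0.26 to 1.82) with hairpin 1 and 0.51 (-0.33 to 1.34) with hairpin 2, against 0.45 with hairpin 1 and 0.02 with hairpin 2 for all autosomal regions under that limit. That p limit was reached by 14394 of 119696 autosomal regions with hairpin 1, 10724 of 81189 with hairpin 2 and 10559 of 83564 with shScramble. An authors' q of at most 0.05 was reached by 3 member regions with hairpin 1, 0 with hairpin 2 and 2 with shScramble. Over the whole autosomal lists that q was reached by 1790 regions with hairpin 1, 1361 with hairpin 2 and 1302 with shScramble. Regions were narrowest with hairpin 2, with median widths of 1325 bp with hairpin 1, 1000 bp with hairpin 2 and 1585 bp with shScramble. At the 73 places in member loci with exactly 1 region per list, hairpin 2 had a narrower region than shScramble at 61 (83.6%), against 74.8% of 22798 such places elsewhere.

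Both hairpin lists held more regions than the shScramble list at 7 of the 34 loci (20.6%), beside 25.6% of all 19122 autosomal genes. Both held fewer at 1 of the 34, the chromosome 5 clusters, beside 13.2% of all genes. These shares lie below the background and are no result about the family. With lists cut to the length of the shortest, 7 loci had more with both hairpins and 3 fewer, where the background was 18.2% and 21.8%. Among regions with an authors' p of at most 0.05 it was 6 and 0, where the background was 10.7% and 6.09%. CDH4, CDH15, CDH16 and CDH22 were among the loci with more in all 3 counts. Among the 18 unclustered members of at least 100 kb, 3 had more with both and 0 fewer, beside 28.8% and 12.6% of the autosomal genes of that length. Hairpin 1 listed more regions at 24 loci and fewer at 3, beside 51.8% and 17.5% of all genes. At the 18 long members it listed more at 15 and fewer at 1, beside 2361 and 476 of the 3210 autosomal genes of that length. Hairpin 2 listed more at 11 and fewer at 12, beside 31.1% and 33.3%. At the 18 long members it listed more at 5 and fewer at 8, beside 1015 and 1650 of the 3210. At 9 loci the hairpins lay on opposite sides, with more regions with hairpin 1 and fewer with hairpin 2, beside 12.2% of all genes. Of these, 8 were among the 18 members of at least 100 kb, beside 32% of the autosomal genes of that length. The reverse was listed at 2 loci, PCDH1 and CDH7, beside 1.41% of all genes, and at 1 of the 18, CDH7, beside 0.997%.

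**Figure D1:**
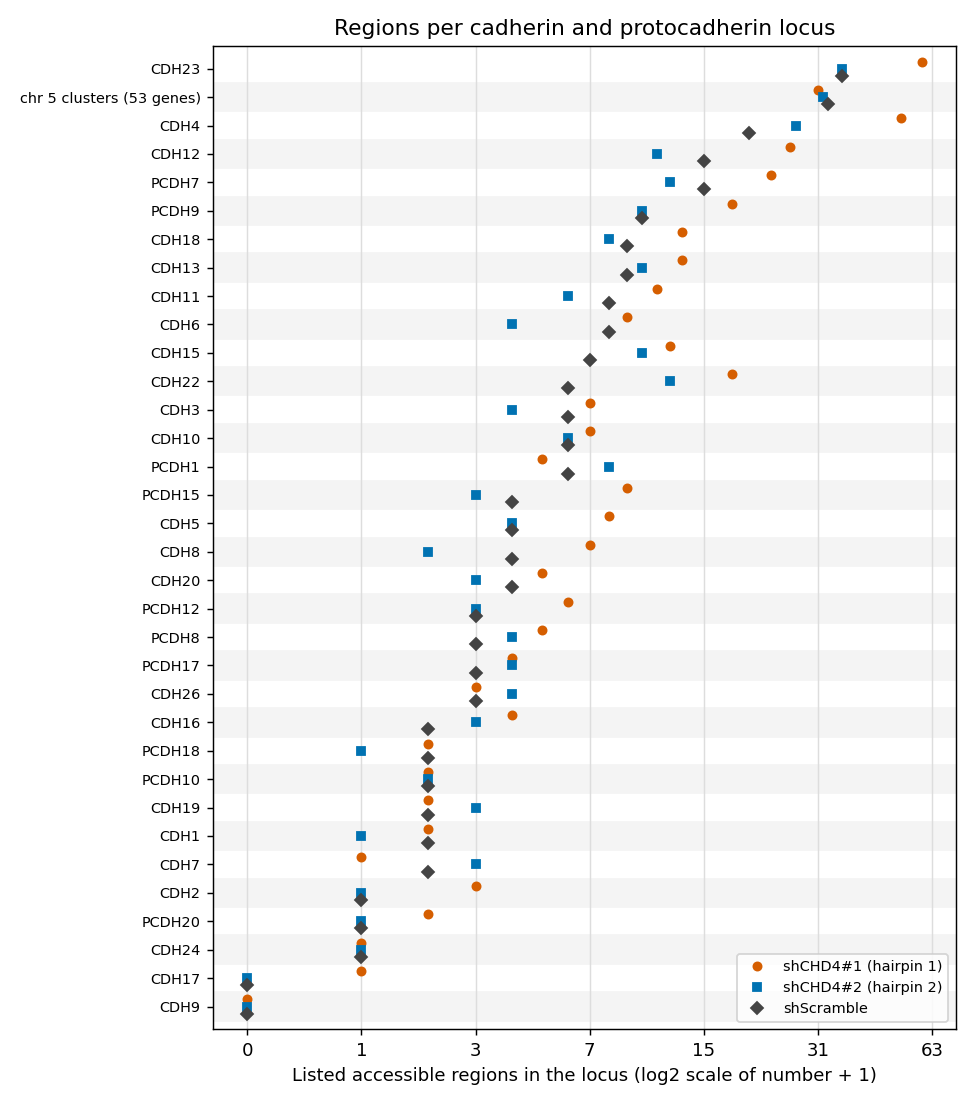
Number of listed regions in each unclustered member locus and in the chromosome 5 clusters, on a log2 scale of the number plus 1, for hairpin 1 (circles), hairpin 2 (squares) and shScramble (diamonds). CDH4 and CDH22 have more regions with both hairpins (52 with hairpin 1, 27 with hairpin 2 and 20 with shScramble at CDH4, and 18 with hairpin 1, 12 with hairpin 2 and 6 with shScramble at CDH22), while the clusters lie at 31 with hairpin 1, 32 with hairpin 2 and 33 with shScramble.

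Among the 5 type I cadherins, 2 had an excess over shScramble with both hairpins and 0 a deficit, beside 25.6% and 13.2% of all genes. CDH4, the R-cadherin first described in retina, had 52 regions with hairpin 1, 27 with hairpin 2 and 20 with shScramble. Its locus is on chromosome 20 and spans 698 kb. CDH15, the M-cadherin of muscle cells and their precursors, had 12 regions with hairpin 1, 10 with hairpin 2 and 7 with shScramble. CDH2, the N-cadherin, had 3 with hairpin 1, 1 with hairpin 2 and 1 with shScramble. Only hairpin 1 was above shScramble at CDH2. CDH3, the P-cadherin of placenta and epithelia, had 7 with hairpin 1, 4 with hairpin 2 and 6 with shScramble. CDH1, the E-cadherin of epithelia, had 2 with hairpin 1, 1 with hairpin 2 and 2 with shScramble, and neither end of the gene had a region within 1 kb in any list. Only CDH4 and CDH15 of the 5 therefore exceeded shScramble with both hairpins.

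At CDH4, 13 merged regions were in all lists, 7 were gained, meaning present in both hairpin lists and absent from shScramble, and 5 were lost, meaning present in shScramble alone. Hairpin 1 alone had 29 more and hairpin 2 alone had 6, so most of the excess with hairpin 1 had no counterpart with hairpin 2. The start that RefSeq lists at chr20:61499421 was covered in all 3 lists by one of the better ranked regions of the family, at rank 1752 with hairpin 1, 1712 with hairpin 2 and 2213 with shScramble. A second listed start, at chr20:61599761, was covered with hairpin 2 only. Regions with an authors' p of at most 0.05 numbered 7 with hairpin 1, 6 with hairpin 2 and 3 with shScramble. By bases covered the picture differed, with 74290 with hairpin 1, 32670 with hairpin 2 and 35030 with shScramble.

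Both ends of CDH15 were covered in every list. The end at chr16:89171748 lay in a region in every list, at rank 117306 with hairpin 1, 1953 with hairpin 2 and 2990 with shScramble. The hairpin 1 region there was 4440 bp wide and among the last of its list. A region at chr16:89175291-89176170 was gained with both hairpins, at rank 13426 with hairpin 1 and 16923 with hairpin 2. Regions with an authors' p of at most 0.05 numbered 3 with hairpin 1, 3 with hairpin 2 and 1 with shScramble. With the 5 kb at either end left out, the gene had 7 regions with hairpin 1, 6 with hairpin 2 and 6 with shScramble, so the excess with hairpin 2 lay in the flanks.

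The N-cadherin gene had 2 listed starts, and the start at chr18:28177130, on the minus strand, was covered with both hairpins alone. The region there was 350 bp wide with hairpin 1, at chr18:28177091-28177440, and 310 bp with hairpin 2, at chr18:28177081-28177390, nearly the window printed above. It ranked 36570 with hairpin 1 and 35102 with hairpin 2, with authors' p-values of 0.283 with hairpin 1 and 0.425 with hairpin 2, so both were weak. The nearest shScramble region lay 113180 bp away. The other start, at chr18:28036641, was covered in no list.

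Of the 13 type II cadherins, 1 exceeded shScramble with both hairpins and 0 were below it, beside 25.6% and 13.2% of all genes. That 1 was CDH22, a cadherin known mainly from brain, with 18 regions with hairpin 1, 12 with hairpin 2 and 6 with shScramble. The difference was the largest of the unclustered members, with a mean log2 ratio, 1 added to each number, of 1.17. CDH4 followed with 0.88, CDH15 and CDH16 with 0.58 each and CDH2 and CDH17 with 0.50 each. At the other end were CDH6 with -0.35, CDH1 and PCDH18 with -0.29 each, CDH3 with -0.15, CDH7 with -0.08 and CDH20 with -0.03, tied with CDH8. At CDH22, 5 merged regions were gained with both hairpins and 1 was lost with both, while 4 were in all lists. Of the gene's ends, the lower-numbered one was covered with both hairpins and the other with hairpin 1 and shScramble. An authors' p of at most 0.05 was reached by 3 regions with hairpin 1, 3 with hairpin 2 and 0 with shScramble. Of the 5 gained regions, 4 lay in the lower-numbered part of the gene, where shScramble had no region from the gene's lower end to 56092 bp into it. By bases covered hairpin 2 was below shScramble, with 24100 with hairpin 1, 9650 with hairpin 2 and 11310 with shScramble.

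**Figure D2:**
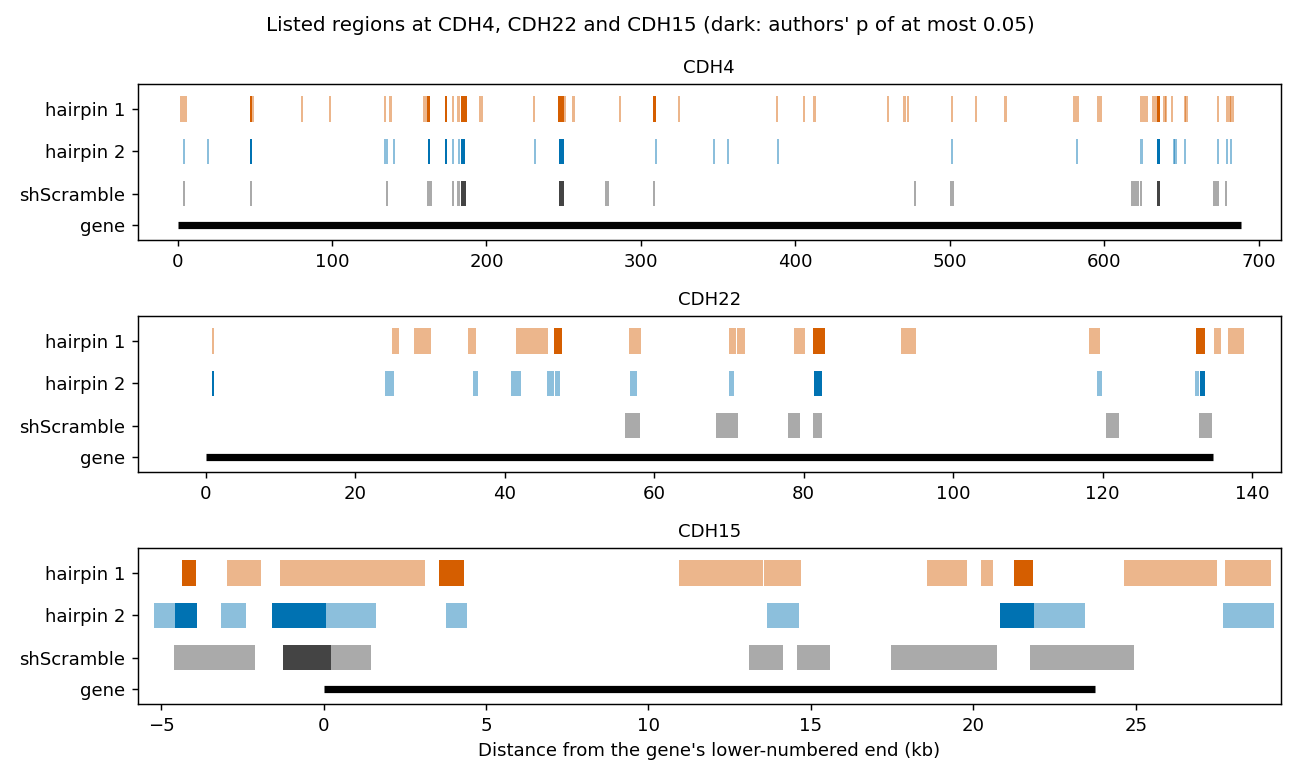
Listed regions along CDH4, CDH22 and CDH15 in kb from the lower-numbered end of each gene, with rows for hairpin 1, hairpin 2 and shScramble above the gene (black bar). Dark blocks have an authors' p of at most 0.05, numbering 7 with hairpin 1, 6 with hairpin 2 and 3 with shScramble at CDH4, 3 with hairpin 1, 3 with hairpin 2 and 0 with shScramble at CDH22, and 3 with hairpin 1, 3 with hairpin 2 and 1 with shScramble at CDH15.

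The remaining type II genes showed mixed or equal numbers. CDH12, a brain cadherin, had 26 regions with hairpin 1, 11 with hairpin 2 and 15 with shScramble. CDH18, likewise known from brain, had 13 with hairpin 1, 8 with hairpin 2 and 9 with shScramble. CDH10, a neural cadherin, had 7 with hairpin 1, 6 with hairpin 2 and 6 with shScramble. Fewer regions with hairpin 2 than with shScramble were thus listed at CDH12 and CDH18. CDH6, the K-cadherin of kidney, had 9 with hairpin 1, 4 with hairpin 2 and 8 with shScramble, and CDH9 had no region in any list. These 5 type II genes, which share chromosome 5, summed to 55 with hairpin 1, 29 with hairpin 2 and 38 with shScramble. The ratios to shScramble of 1.45 with hairpin 1 and 0.763 with hairpin 2 stood beside 1.46 with hairpin 1 and 0.932 with hairpin 2 for the rest of that chromosome.

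Elsewhere in the genome, CDH11, the osteoblast cadherin, had 11 with hairpin 1, 6 with hairpin 2 and 8 with shScramble. CDH8, a neural cadherin, had 7 with hairpin 1, 2 with hairpin 2 and 4 with shScramble. CDH20 had 5 with hairpin 1, 3 with hairpin 2 and 4 with shScramble. In these genes hairpin 1 was highest and hairpin 2 lowest. CDH7 had 1 with hairpin 1, 3 with hairpin 2 and 2 with shScramble. CDH19, known from Schwann cell precursors, had 2 with hairpin 1, 3 with hairpin 2 and 2 with shScramble. In both, hairpin 2 had the most. CDH5, the VE-cadherin of endothelial junctions, had 8 with hairpin 1, 4 with hairpin 2 and 4 with shScramble. CDH24 lay inside a single region of 65300 bp with identical coordinates and an authors' p of 1 in every list, so its locus gives no information.

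In the 5 other CDH genes, 2 exceeded shScramble with both hairpins and 0 were below it, beside 25.6% and 13.2% of all genes. CDH16, the kidney-specific cadherin, had 4 with hairpin 1, 3 with hairpin 2 and 2 with shScramble, and without the flanks 2 with hairpin 1, 1 with hairpin 2 and 1 with shScramble. CDH13, the T-cadherin that is anchored by a lipid and lacks a cytoplasmic tail, had 13 with hairpin 1, 10 with hairpin 2 and 9 with shScramble. CDH23, a tip link component of inner ear hair cells, had the most regions of any unclustered member in each list, with 59 with hairpin 1, 36 with hairpin 2 and 36 with shScramble. Its number with an authors' p of at most 0.05 was 6 with hairpin 1, 3 with hairpin 2 and 1 with shScramble. CDH26 had 3 with hairpin 1, 4 with hairpin 2 and 3 with shScramble. CDH17, the liver-intestine cadherin, had 1 region with hairpin 1 and 0 in the other lists.

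Of the 10 unclustered protocadherins, 2 exceeded shScramble with both hairpins and 0 were below it, beside 25.6% and 13.2% of all genes. The differences at these 2 loci were small. PCDH8, a protocadherin of paraxial mesoderm and brain, had 5 regions with hairpin 1, 4 with hairpin 2 and 3 with shScramble. Without the flanks it had 1 in each list, and by bases covered both hairpins were below shScramble, with 7782 with hairpin 1, 5732 with hairpin 2 and 8990 with shScramble. PCDH17 had 4 with hairpin 1, 4 with hairpin 2 and 3 with shScramble. PCDH9 had 18 with hairpin 1, 10 with hairpin 2 and 10 with shScramble. Only hairpin 1 was above shScramble there. PCDH7 had 23 with hairpin 1, 12 with hairpin 2 and 15 with shScramble. PCDH12, of vascular endothelium, had 6 with hairpin 1, 3 with hairpin 2 and 3 with shScramble. PCDH15, the tip link partner of cadherin 23, had 9 with hairpin 1, 3 with hairpin 2 and 4 with shScramble. PCDH1 was the reverse, as it had 5 with hairpin 1, 8 with hairpin 2 and 6 with shScramble, with hairpin 2 above and hairpin 1 below shScramble. PCDH10, PCDH18 and PCDH20 had at most 2 regions in each list, as did CDH1, CDH17, CDH24 and CDH9.

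The 3 unclustered members of chromosome 20, CDH4, CDH22 and CDH26, together had 73 regions with hairpin 1, 43 with hairpin 2 and 29 with shScramble. Ratios to shScramble were 2.52 with hairpin 1 and 1.48 with hairpin 2, beside 1.5 with hairpin 1 and 1.08 with hairpin 2 for the rest of chromosome 20. These were the largest ratios of the 7 chromosomes for which such sums were made. The 8 members of chromosome 16 had 1.54 with hairpin 1 and 0.976 with hairpin 2, beside 1.56 with hairpin 1 and 1.12 with hairpin 2 for its rest. The 3 of chromosome 4 had 1.42 with hairpin 1 and 0.789 with hairpin 2, beside 1.5 with hairpin 1 and 0.911 with hairpin 2, and the type II genes of chromosome 5 also lay below their chromosome with both. With both hairpins the members lay above their chromosome on chromosomes 13 and 20. The surroundings of single loci were set beside them as the region numbers within 1 Mb on both sides, the locus itself left out. Around CDH22 there were 154 regions with hairpin 1, 123 with hairpin 2 and 119 with shScramble, ratios of 1.29 with hairpin 1 and 1.03 with hairpin 2, against 3.0 with hairpin 1 and 2.0 with hairpin 2 in the locus. Around CDH4 there were 209 with hairpin 1, 157 with hairpin 2 and 118 with shScramble, ratios of 1.77 with hairpin 1 and 1.33 with hairpin 2, against 2.60 with hairpin 1 and 1.35 with hairpin 2 in the locus. Around CDH15 there were 270 with hairpin 1, 207 with hairpin 2 and 162 with shScramble, ratios of 1.67 with hairpin 1 and 1.28 with hairpin 2, against 1.71 with hairpin 1 and 1.43 with hairpin 2 in the locus. The excess at CDH15, and that at CDH4 with hairpin 2, thus had nearly the size of the excess around them, while that at CDH22 was larger with both hairpins. CDH22 was the unclustered member with the largest mean log2 ratio, so its place above its surroundings follows in part from how it was picked. Its ratios rest on 6 regions with shScramble, and by bases covered hairpin 2 was below shScramble, with 9650 against 11310.

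**Figure D3:**
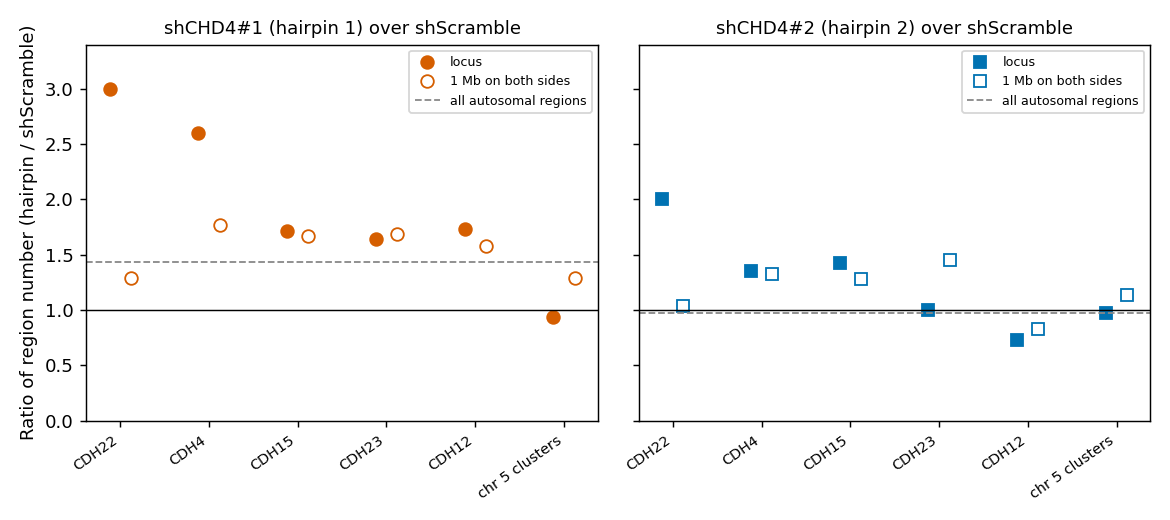
Ratio of region number to shScramble for hairpin 1 (left panel) and hairpin 2 (right panel), in 5 member loci and the chromosome 5 clusters (filled) and in 1 Mb on both sides (open). The dashed line is the ratio of the whole autosomal lists, 1.43 with hairpin 1 and 0.972 with hairpin 2, and the solid line is 1. CDH22, the unclustered member with the largest mean log2 ratio, lies above its surroundings with both hairpins. It stands at 3.0 against 1.29 with hairpin 1 and 2.0 against 1.03 with hairpin 2.

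Merged over the 3 lists, the member loci held 405 regions. Of these, 118 were in all lists, 48 (11.9%) were gained and 43 (10.6%) lost, beside 10.1% and 10.5% of 126870 merged regions elsewhere on the autosomes. By the worse of its 2 ranks, the best gained region lay in CDH4 at chr20:61425321-61426590, at rank 8434 with hairpin 1 and 2896 with hairpin 2. The next lay in CDH23 at chr10:71796651-71798030, at rank 13229 with hairpin 1 and 14374 with hairpin 2. CDH22 held the third at chr20:46214631-46221450, at rank 8137 with hairpin 1 and 16627 with hairpin 2. The region in CDH23 began 880 bp from a listed inner start of that gene. The best ranked lost region was in CDH3 at chr16:68667861-68669420, rank 21091 with shScramble, followed by chr5:141516131-141517900 beyond the PCDHG genes, rank 34746, and chr20:61729091-61730350 in CDH4, rank 38651.

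The chromosome 5 clusters run from chr5:140786140 to chr5:141512975 with 53 genes. They held 31 regions with hairpin 1, 32 with hairpin 2 and 33 with shScramble, log2 ratios of -0.09 (-0.79 to 0.61) with hairpin 1 and -0.04 (-0.74 to 0.65) with hairpin 2. Around them, within 1 Mb on both sides, there were 175 regions with hairpin 1, 154 with hairpin 2 and 136 with shScramble, ratios of 1.29 with hairpin 1 and 1.13 with hairpin 2, against 0.939 with hairpin 1 and 0.970 with hairpin 2 in the clusters. Bases covered were 55850 with hairpin 1, 60980 with hairpin 2 and 84860 with shScramble. Numbers in the clusters thus stayed level across the lists although the hairpin 1 list is longer, and fewer bases were covered with either hairpin.

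The subclusters differed in the direction of small differences. PCDHA genes had 9 regions with hairpin 1, 12 with hairpin 2 and 11 with shScramble. PCDHB genes had 9 with hairpin 1, 8 with hairpin 2 and 7 with shScramble. PCDHG genes had 13 with hairpin 1, 12 with hairpin 2 and 15 with shScramble. The counting interval of the log2 ratio included 0 in each of them. In bases covered, PCDHB genes had 13280 with hairpin 1, 26890 with hairpin 2 and 38260 with shScramble, and PCDHG genes had 25700 with hairpin 1, 15560 with hairpin 2 and 29760 with shScramble. With hairpin 1 most of the shortfall of the clusters thus lay in the PCDHB genes, and with hairpin 2 both subclusters were below shScramble. Within the PCDHB genes it lay mostly between PCDHB8 and PCDHB13, at 2 neighbouring places. Regions there added up to 7090 bp and 840 bp with hairpin 1, to 9610 bp and 13240 bp with hairpin 2, and to 19370 bp and 13460 bp with shScramble. The shScramble regions were 3, of 13710, 5660 and 13460 bp, at ranks 83490, 45921 and 45922 of their list, so they were broad and weak. Their span reaches the PCDHB13 start, whose stretch is the near copy of that of PCDHB8.

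**Figure D4:**
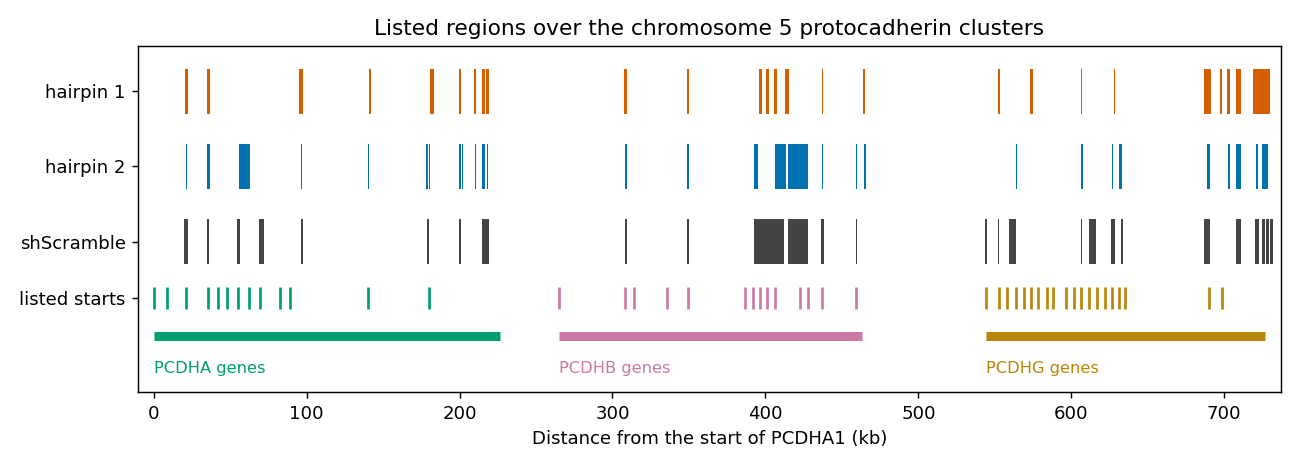
Listed regions over the chromosome 5 clusters in kb from the start of PCDHA1, for hairpin 1, hairpin 2 and shScramble, with the listed starts of PCDHA, PCDHB and PCDHG genes as ticks and the span of each subcluster as a bar. The broad shScramble blocks near 400 kb are the 3 regions from PCDHB8 to PCDHB13, of 13710, 5660 and 13460 bp.

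The best ranked region of any member locus in the shScramble list lay in the clusters, at chr5:141493681-141497450. It is 4600 bp beyond the lower-numbered end of PCDHGC5, toward the shared constant exons. It ranked 860 with hairpin 1, 1801 with hairpin 2 and 447 with shScramble, where its authors' p was 2.1e-05. The region at the start of PCDHGC3, a C-type gene, was likewise in all lists, at ranks 2666 with hairpin 1, 3140 with hairpin 2 and 4200 with shScramble. One at chr5:141000511-141005590, in the last part of the PCDHA genes, ranked 4732 with hairpin 1, 7952 with hairpin 2 and 7555 with shScramble. These well ranked regions of the clusters were present in every list.

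Fewer starts of the clustered genes were covered in the hairpin lists than in the shScramble list. A region within 1 kb of a listed start was present at 16 of 47 genes with hairpin 1 (34%), 20 with hairpin 2 (42.6%) and 24 with shScramble (51.1%). Across the 15100 autosomal genes with a listed start, the shares were 71.6% with hairpin 1, 68.7% with hairpin 2 and 63.4% with shScramble, in the opposite order. At the 20 unclustered members with a listed start, 15 with hairpin 1, 14 with hairpin 2 and 15 with shScramble were covered. The order in the clusters is thus the reverse of that over all genes, and whether the difference exceeds the spread between replicates was not tested. A region with an authors' p of at most 0.05 lay within 1 kb of few listed starts in the clusters. These were PCDHB2, PCDHB14 and PCDHGC3 with shScramble and with hairpin 1, and PCDHGC3 alone with hairpin 2. The reversed order thus rests mostly on weaker regions. With shScramble, the region nearest to PCDHB8, PCDHB9, PCDHB10 and PCDHB16 was the same, at rank 83490 with an authors' p of 0.951. PCDHB12 and PCDHB13 shared another, at rank 45922 with a p of 0.601. Neighbouring starts share broad regions, so the genes are not independent.

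**Figure D5:**
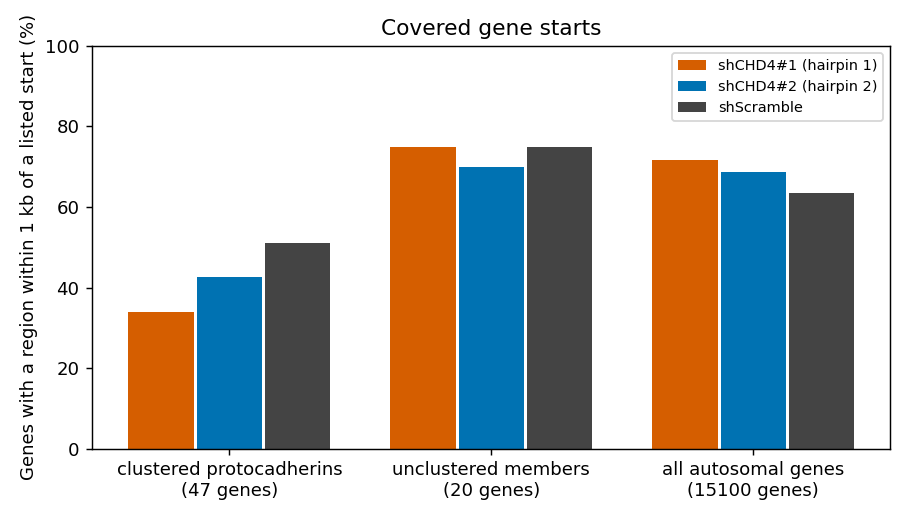
Share of genes with a listed region within 1 kb of a RefSeq start, in percent, for clustered protocadherins, unclustered members and all autosomal genes, with bars for hairpin 1, hairpin 2 and shScramble. In the clusters the bars stand at 34% with hairpin 1, 42.6% with hairpin 2 and 51.1% with shScramble, over all genes at 71.6% with hairpin 1, 68.7% with hairpin 2 and 63.4% with shScramble.

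In the clusters, 11 genes were covered in all lists, namely PCDHA4, PCDHA5, PCDHAC2, PCDHB2, PCDHB5, PCDHB10, PCDHB14, PCDHB16, PCDHGA8, PCDHGA10 and PCDHGC3. Another 19 were covered in none, and 17 in some lists. PCDHA8, PCDHB8, PCDHB12, PCDHB13, PCDHB15, PCDHGB1 and PCDHGB7 had a region with hairpin 2 and shScramble but not with hairpin 1. PCDHB9 and PCDHGA2 had one with hairpin 1 and shScramble. PCDHGB2 and PCDHGC4 were covered with hairpin 1 only and PCDHA9 with hairpin 2 only. Of the 13 PCDHB genes with the printed word, 6 were covered with hairpin 1, 9 with hairpin 2 and 10 with shScramble. Of the 34 other clustered genes, 10 with hairpin 1, 11 with hairpin 2 and 14 with shScramble were covered. Among the 6 clustered genes without a listed start, PCDHA13, PCDHB11, PCDHGA12 and PCDHGC5 had an end covered in every list. For PCDHGA12 and PCDHGC5 that end was chr5:141512975, the higher-numbered end that the PCDHG genes share. The lower-numbered end of PCDHGC5, at chr5:141489081, was covered with both hairpins but not with shScramble. That of PCDHGA12, at chr5:141430507, was covered in no list.

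Among the 67 members with a listed start, 2 were covered in both hairpin lists and not in the control list (background 6.96%), and 5 with shScramble and neither hairpin (background 0.894%). The first are CDH2 and PCDHAC1, a C-type gene of the alpha cluster. The second are CDH10, PCDHA10, PCDHGA1, PCDHGA9 and PCDHGB5, of which the last pair share 1 region, chr5:141397951-141402650. The lost starts rested on low-ranked shScramble regions, at rank 65512 for CDH10, 68673 for PCDHA10, 45314 for PCDHGA1 and 63083 for the shared region. Their authors' p lay between 0.591 and 0.857. At PCDHAC1 the hairpins listed separate regions, 582 bp from the start at rank 82052 with hairpin 1 and 32 bp from it at rank 33210 with hairpin 2, and the nearest shScramble region was 38382 bp away.

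For members without a listed start both gene ends were used. CDH5 had its end at chr16:66366691 and CDH6 its end at chr5:31193686 covered in both hairpin lists but in no shScramble region. At CDH16 the end at chr16:66908122 was covered with shScramble alone, by a region 992 bp away, while the nearest regions of the hairpins lay 1222 bp away with hairpin 1 and 1329 bp away with hairpin 2, just outside the window. Together with the listed starts this made 4 members gained and 6 lost. Of the other unclustered genes, CDH7 was covered with hairpin 2 and shScramble, PCDH15 with hairpin 1 and shScramble, and CDH26 with hairpin 1 only. CDH12 kept a covered start in every list, though its start at chr5:22853344 was covered with shScramble alone.

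Short motifs were also searched on both strands of the listed windows. GGAAGGAA, a tandem ETS core as in the microsatellites bound by EWSR1::FLI1, was in 3 of 52 windows of clustered genes and 3 of 32 of unclustered members, against 3.66% of all windows. CACCTG, the E-box read by SNAI and ZEB repressors, was in 5 of 52 and 4 of 32, against 20.1%. CCANNAGGG, part of the CTCF core, was in 1 of 52 and 1 of 32, against 6.64%. TATAAA was in 6 of 52 and 4 of 32, against 9.51%. A match is only a match of letters, and its absence says nothing about the factor.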

How the data were processed

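ATAC-seq region lists of SK-N-MC cells were analysed, and the labels gave the groups. The submitters' processing notes name deepTools 3.2.1, SAMtools 1.9, BWA, FastQC 0.11.7 and Trimmomatic 0.36 as the authors' tools, and GRCh38 and dm6 as builds. Not given in the sources used here: the peak caller, the Tn5 shift and any use of the Drosophila spike-in. Each deposited region has 2 values treated as a score of unstated unit, and an authors' p-value and q-value by which it is ranked. The scores were used only within a list. Counts under a p or q limit, and ranks, were set side by side between lists. The full lists hold 122874 regions with hairpin 1, 83246 with hairpin 2 and 85779 with shScramble, so ranks are not on a common scale. A more lenient or deeper list would hold more weak regions.

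Gene positions and promoters came from RefSeq (GRCh38.p14). Overlap needed 1 bp, and region numbers got 1 added before log2 ratios per gene. Python 3.11.15, pandas 2.3.3 and numpy 2.4.6 were used. On simulated regions 2000 of 2000 overlaps and 40 of 40 joined lists were recovered. Members were taken by symbol alone, but that rule, the gene lists and the comparisons were set with earlier results of these data known. Genes described in detail were the 6 unclustered members with the largest and the 6 with the smallest mean log2 ratio, the type I cadherins, members with starts covered in some lists and clustered genes with covered starts. Alternatives were other ranks, list lengths, joining, flanks, windows and bases covered. The restriction to listed starts was added after seeing the data.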

Additional observations from a re-analysis of the deposited data

How the results depend on the processing

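Of 68 alternative values, 49 stayed within 1.5 times or the counting interval and 19 moved. A reversal was scored only for a ratio whose interval left out 0. Only the ratio with hairpin 1 over all member loci met that, and it kept its sign. With hairpin 2 that ratio went from 0.02 to -0.03 with no flank and -0.01 with regions within 500 bp joined. The 7 loci with more regions with both hairpins became 4 with no flank, 12 with a flank of 50 kb and 3 by bases covered (CDH16, PCDH1 and PCDH17). The 1 locus with fewer became 0 under the authors' p limit of 0.05, 6 for the best 20000 and 3 with lists of equal length. It became 0 with regions within 500 bp joined and 6 by bases covered. With each cluster gene as a locus, 14 of 86 loci had more and 11 fewer. Genes of the PCDHA and of the PCDHG cluster share an end, so the same regions are counted again in that setting. Among these settings, the share over all genes was counted only for the p limit and lists of equal length. CDH4 and CDH22 had more with both hairpins under each setting of rank, list length, joining and flank, though not by bases covered. Among the settings of rank, list length, joining and flank, CDH15 and CDH16 lost the call only with no flank. PCDH8 lost it with no flank, under the p limit and for the best 20000. CDH13 lost it with regions joined, under the p limit and for the best 20000. PCDH17 lost it with lists of equal length, under the p limit, with regions joined and with a flank of 50 kb. For the best 20000 PCDH17 turned to fewer (0 with hairpin 1, 0 with hairpin 2 and 1 with shScramble). The log2 ratio over all member loci moved to 1.04 with hairpin 1 and 0.51 with hairpin 2 under the p limit of 0.05, and with hairpin 1 to 0.22 for the best 20000 and 0.14 with lists of equal length. With hairpin 1 the ratio was thus smaller when lists were cut to the same number of regions. It was larger under the p limit, where all autosomal regions gave 0.45. The ratio over the clusters with hairpin 2 took both signs, between -0.58 and 0.11, always within its interval. The 4 members with starts gained with both became 0 under the p limit, 1 for the best 20000 and 2 with listed starts only. The 6 lost became 1 under the p limit and 3 for the best 20000. The cause was not tested. No paired analysis was possible because each group has 1 list, and no replicate could be left out in turn. Depth is unknown, so a region not listed is not shown to be closed. The promoter stretches compared for PCDHB8 and PCDHB13 differ at 1 of 60 bases.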

Other observations

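Other genes of adhesion were counted the same way, from lists chosen with earlier results known, and no list was tested. Beside the background of 25.6% of genes with more regions with both hairpins and 13.2% with fewer, the 18 other genes of the cadherin superfamily had 4 with more and 0 with fewer. CELSR1, a planar polarity cadherin, had 23 regions with hairpin 1, 13 with hairpin 2 and 9 with shScramble. CDHR5, an intestinal cadherin, had 4 with hairpin 1, 5 with hairpin 2 and 1 with shScramble. FAT1, a giant cadherin, had no region in any list. Of the 7 desmosomal cadherins, which lie together on chromosome 18, 5 had no region in any list, and DSG1 had 2 with hairpin 1, 1 with hairpin 2 and 0 with shScramble.

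Among 11 catenins and cadherin partners, 2 exceeded shScramble with both hairpins and 2 were below it, beside 25.6% and 13.2% of all genes. CTNNB1, the beta-catenin that also carries Wnt signals, had 2 with hairpin 1, 3 with hairpin 2 and 0 with shScramble. CTNNA1, the alpha-catenin that links cadherins to actin, had 6 with hairpin 1, 4 with hairpin 2 and 10 with shScramble. Of 8 repressors of cadherin genes, 3 had more and 1 fewer, beside the same shares of all genes. SNAI2 had 6 with hairpin 1, 3 with hairpin 2 and 2 with shScramble, ZEB1 had 1 with hairpin 1, 2 with hairpin 2 and 0 with shScramble. ZEB2 had 7 with hairpin 1, 9 with hairpin 2 and 6 with shScramble, and TWIST1 had 3 with hairpin 1, 3 with hairpin 2 and 4 with shScramble. Among the 9 autosomal regulators of the protocadherin clusters, NIPBL, the cohesin loader, had 6 with hairpin 1, 3 with hairpin 2 and 2 with shScramble. SMCHD1, a silencer of the clusters, had 1 with hairpin 1, 2 with hairpin 2 and 0 with shScramble. SMC3, a cohesin subunit, had 3 with hairpin 1, 2 with hairpin 2 and 4 with shScramble. Of 7 proteases that cut cadherins, NCSTN had 3 with hairpin 1, 5 with hairpin 2 and 2 with shScramble, ADAM15 had 5 with hairpin 1, 5 with hairpin 2 and 7 with shScramble and APH1A had 2 with hairpin 1, 4 with hairpin 2 and 5 with shScramble.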
